A study of Mus musculus with 12 samples.

Results

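The comparison described here sets 3 RNA-seq libraries of PparaΔIE intestine against 3 libraries of Pparafl/fl intestine, all from mice on a high-fat diet. These are 6 of the 12 libraries of the series, chosen by their genotype and diet labels, and 16912 genes with enough counts were tested between them. The name PparaΔIE denotes mice that lack Ppara in the epithelial lining of the intestine, and Pparafl/fl mice carry the floxed allele and served as controls. Both groups were male C57BL/6 mice, 7 to 8 weeks old, given a 60% high-fat diet for 10 days. The labels name no recombinase line, no deleted exons and no stretch of the intestine. They do not say that libraries came from separate mice. A p-value here sets the group difference against the spread between samples, and part of that spread may be technical.

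Ppara encodes PPARA, a nuclear receptor that fatty acids activate and that binds DNA as a pair with a retinoid X receptor. In the small intestine, enterocytes take up dietary fat, rebuild it into triglyceride for export in chylomicrons and burn a part of it in mitochondria and peroxisomes. Genes of fatty acid binding, transport, oxidation and ketone body synthesis are the best known targets of the receptor.

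The deposited values are expected counts per gene, that is, numbers of reads as estimated by the counting tool, and totalled 34315526 ± 1028613 in PparaΔIE and 38365860 ± 1942756 in Pparafl/fl libraries (SD, n = 3 each). Levels are given as CPM, counts scaled to library size, and differences as log2 fold changes of PparaΔIE over Pparafl/fl. The tissue matched its label of intestine, since the ileal bile acid binding protein gene Fabp6 stood at 3161 to 4574 CPM in PparaΔIE and 3747 to 4377 CPM in Pparafl/fl. Of the listed colon genes, Car1 and Aqp8 were at or near 0 in both groups, but Slc26a3 had a mean log2 CPM of 7.22. The 12 listed colon genes summed to 893 to 985 CPM in PparaΔIE and 845 to 974 CPM in Pparafl/fl. Along the main axis of variation among these libraries, which held 32.3% of the variance, Pparafl/fl 1, 2 and 3 lay at -30.9, -7.7 and -1.2. PparaΔIE 1, 2 and 3 lay at 9.9, 15.2 and 14.7. The groups did not overlap on this axis, and Pparafl/fl 1 stood apart from the rest. Protein-coding genes took 78.7% ± 1.24 of counts in PparaΔIE and 81.2% ± 0.687 in Pparafl/fl libraries, without overlap. Nuclear ribosomal RNA genes took 0.331% ± 0.0875 in PparaΔIE and 0.193% ± 0.0123 in Pparafl/fl.

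Ppara itself (chromosome 15, 85734983 to 85802819, mm10) was examined first as the targeted gene. It was measured at 11.6, 11.3 and 17.5 CPM in PparaΔIE libraries 1, 2 and 3, against 39.9, 37.1 and 34.2 CPM in Pparafl/fl libraries 1, 2 and 3. The groups were well separated, with PparaΔIE 3 the highest of its group and Pparafl/fl 3 the lowest. Ppara fell in PparaΔIE (log2 fold change -1.46, SE 0.16, adjusted p = 0.041 by edgeR's quasi-likelihood test with Benjamini-Hochberg adjustment over all genes). Reads of undeleted exons and of non-epithelial cells may be part of these counts, and the source of the remaining reads was not tested. In bulk tissue fewer cells of a type and less RNA per cell cannot be told apart. The call was kept without PparaΔIE 3 (adjusted p = 0.000598) and was lost without any other single library (adjusted p from 0.0571 to 0.16), with the log2 fold change between -1.70 and -1.35.

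In all, 6 of the 16912 genes passed an adjusted p of 0.05, or 0.0355%, with 3 higher and 3 lower in PparaΔIE (0.0177% in each direction). Beside Ppara these were Mt1, Gsdmc3 and Ppp1r12b, which were higher, and Paqr7 and the small nuclear RNA gene Gm26244, which were lower. At an unadjusted p under 0.05 there were 1858 of the 16912 genes. The same contrast gave 51 calls of 17602 genes (0.29%) when the chow libraries were added to the fit, and 156 calls of 12648 genes (1.23%) by the DESeq2 Wald test. Without Pparafl/fl chow 1 and PparaΔIE chow 3 the fit with chow libraries gave 3 calls of 17927 genes. The biological coefficient of variation, a measure of spread between libraries, was 0.0572 in Pparafl/fl chow and 0.144 in Pparafl/fl on high-fat diet. Calls below that needed the chow libraries carry this limit. Leaving out 1 library gave 19 calls without PparaΔIE 3, 11 without Pparafl/fl 1 or Pparafl/fl 3, 6 without PparaΔIE 2 and 2 without PparaΔIE 1 or Pparafl/fl 2.

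**Figure D1:**
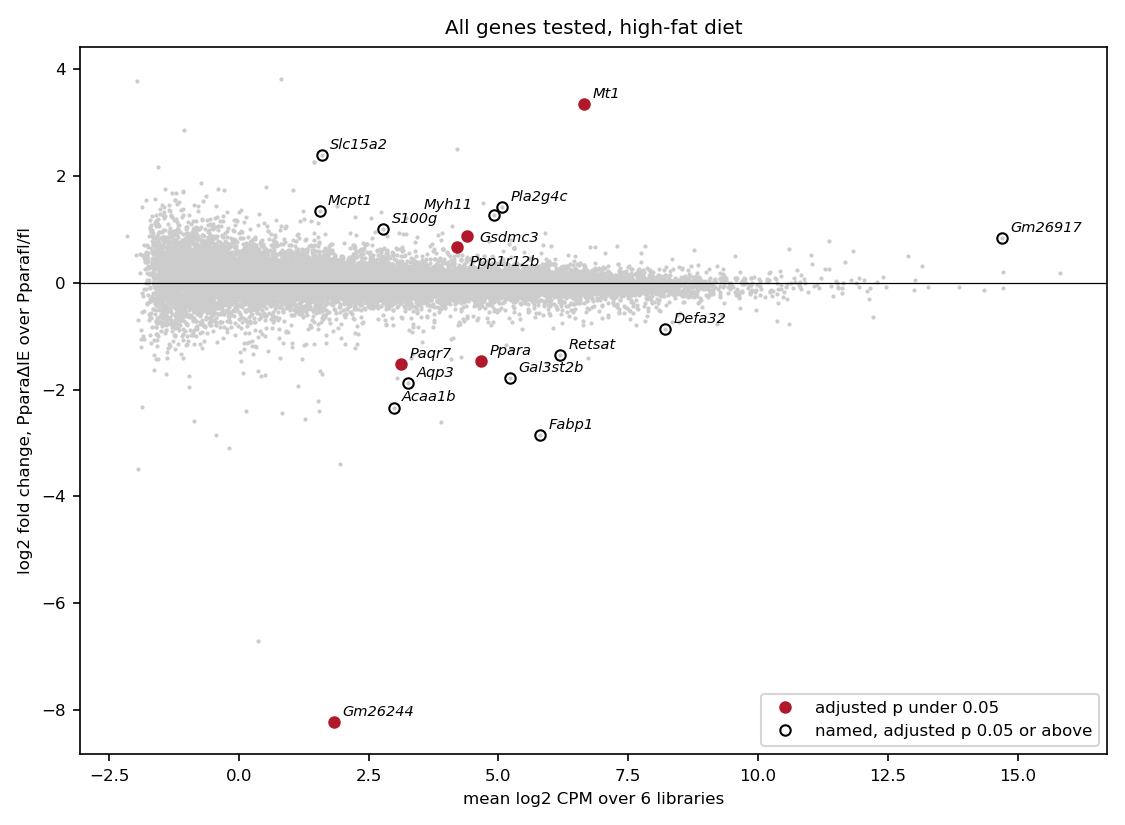
Log2 fold change of PparaΔIE over Pparafl/fl on high-fat diet (vertical axis) against the mean log2 CPM over 6 libraries (horizontal axis), 1 point per gene tested. The 6 genes with adjusted p under 0.05 are red, and Mt1 stands at 3.35, Ppara at -1.46 and Paqr7 at -1.53. Open circles name 12 genes that did not pass, Fabp1 at -2.84 among them. The fitted value of Gm26244, which had 2 counts over all PparaΔIE libraries, depends on the prior count and is no measure of size.

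Listed genes of fat oxidation, uptake and export had medians below 0 in PparaΔIE, while none of these genes passed the test across all genes. Of 29 listed genes known to respond to PPARA, 24 passed the filter on low counts. None of the 24 passed the test across all genes, but all 24 had a log2 fold change below 0, against 50.2% of all genes tested. A shared sign was not particular to this list. Also below 0 were 22 of 23 nuclear oxidative phosphorylation genes, 22 of 24 cholesterol synthesis genes and 16 of 17 glycolysis genes. Their medians were -0.16, -0.09 and -0.14. All 12 endothelial genes were below 0 too, with a median of -0.24. For 14 of the 24 every PparaΔIE library lay below every Pparafl/fl library, against 8.82% of all genes, and for 0 the reverse held, against 9.39%. Their median log2 fold change was -0.41, against -0.00071 over all genes tested. It ran from -0.53 to -0.25 when each library was left out in turn. The list was put together with earlier results of these data known.

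Fabp1, the liver-type fatty acid binding protein that carries fatty acids inside enterocytes, had the lowest log2 fold change of that list. It stood at 9.2, 18.3 and 13.4 CPM in PparaΔIE, against 158, 105 and 30.3 CPM in Pparafl/fl. The groups did not overlap, but Pparafl/fl 3 was much closer to PparaΔIE than its own group mates (log2 fold change -2.84, SE 0.72, adjusted p = 0.34). Pdk4, a kinase that blocks the use of pyruvate when fat is burnt, was at 14.0, 0.801 and 12.7 CPM in PparaΔIE, against 27.4, 27.3 and 19.3 CPM in Pparafl/fl. Here PparaΔIE 2 was far below the other libraries of its group (log2 fold change -1.43, SE 0.91, adjusted p = 0.62).

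Aqp3, a channel for water and glycerol, had the smallest p of the PPARA-responsive genes. It stood at 2.57, 3.61 and 6.03 CPM in PparaΔIE, against 18.1, 13.9 and 12.8 CPM in Pparafl/fl. The highest PparaΔIE library was less than the lowest Pparafl/fl library by more than the range within PparaΔIE (log2 fold change -1.88, SE 0.30, adjusted p = 0.21). With the chow libraries in the fit its adjusted p was 0.031. Creb3l3, a liver and gut transcription factor that raises triglyceride clearance genes, was at 196, 134 and 219 CPM in PparaΔIE and at 264, 309 and 264 CPM in Pparafl/fl (log2 fold change -0.61, adjusted p = 0.31). Angptl4, a secreted lipase inhibitor and a standard PPAR target, overlapped between groups, with 43.3, 43.3 and 65.9 CPM in PparaΔIE and 93.7, 77.9 and 59.0 CPM in Pparafl/fl (log2 fold change -0.60, adjusted p = 0.41). Smaller differences without overlap were seen in Ech1, an isomerase of fatty acid breakdown (-0.48), Mgll, monoglyceride lipase (-0.47), and Vnn1, a pantetheinase (-0.44). The enzyme genes at the centre of oxidation, Cpt1a (-0.38) and Ehhadh (-0.30), overlapped between groups.

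**Figure D2:**
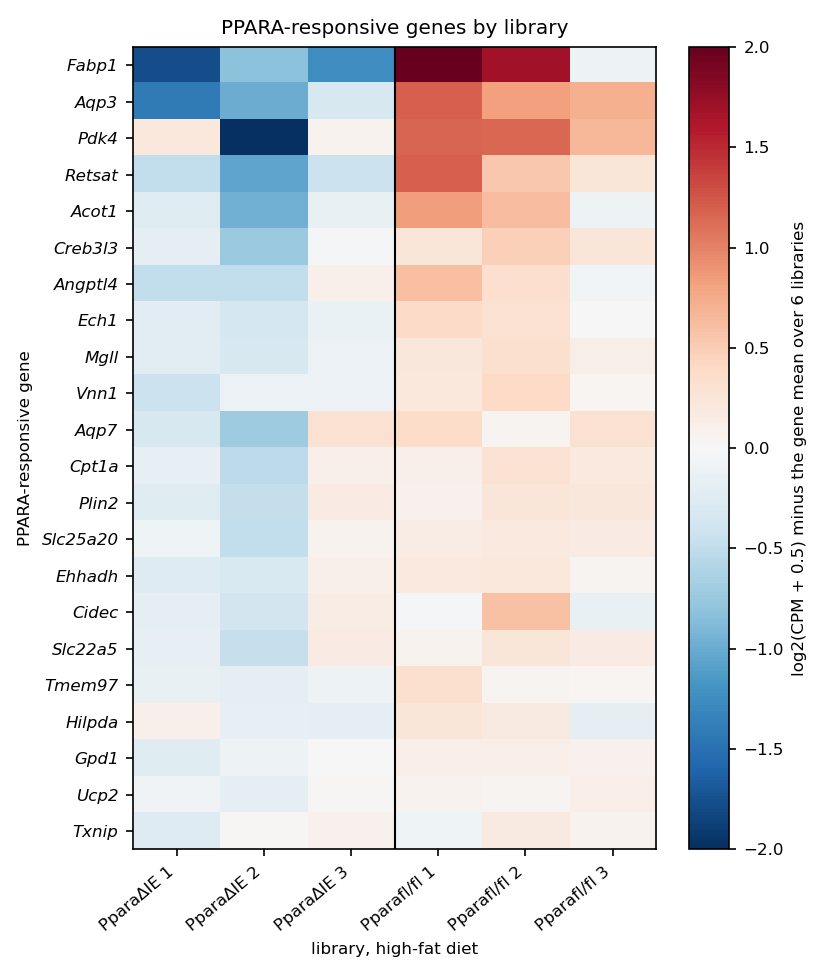
Level of 22 of the 24 tested PPARA-responsive genes (rows, ordered by log2 fold change) in the 6 libraries (columns), as log2(CPM + 0.5) minus the mean of the gene over the libraries, with colours limited at -2 and 2. Fabp1 and Aqp3 are at the top with log2 fold changes of -2.84 and -1.88, and Pparafl/fl 3 and PparaΔIE 3 are paler than the other libraries.

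The libraries of each group differed among themselves in these genes. The score of a list is the mean over its members of log2(CPM + 0.5) after centring each gene on the 6 libraries. For the PPARA-responsive genes it was -0.34, -0.65 and -0.080 in PparaΔIE 1, 2 and 3, and 0.50, 0.46 and 0.12 in Pparafl/fl 1, 2 and 3. PparaΔIE 2 was the lowest of all 6 libraries for 16 of the 24 genes, PparaΔIE 3 was the highest of its group for 20, and Pparafl/fl 3 was the lowest of its group for 15. PparaΔIE 3, which had the most Ppara of its group, and Pparafl/fl 3, which had the least of its group, had the nearest scores across the groups. Pparafl/fl 1 and Pparafl/fl 2, of the same group, were nearer still. Whether the level of Ppara sets that order was not tested.

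The start of Fabp1 is shown because it is the one gene of this list with a close match to the PPAR response element in the window searched. The element was searched as AGGNCANAGGNCA on both strands, from 250 bases before to 50 bases after the RefSeq start. Of the 24 genes, 19 had such a sequence, and 1 of the 19 held a match, while 0.381% of all 32851 promoters of that length held one. The Fabp1 sequence is chr6:71199629-71199928, GRCm38.p6, plus strand, with the match, which lies on the reverse strand, in capitals. No match in the other windows says only that these letters are not there.
Fabp1: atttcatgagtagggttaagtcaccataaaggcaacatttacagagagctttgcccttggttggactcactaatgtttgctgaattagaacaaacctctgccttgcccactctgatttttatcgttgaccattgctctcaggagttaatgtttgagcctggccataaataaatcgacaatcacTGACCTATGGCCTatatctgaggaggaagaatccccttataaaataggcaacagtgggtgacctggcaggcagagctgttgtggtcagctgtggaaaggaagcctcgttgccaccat

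Mitochondrial beta-oxidation, which cuts acyl-CoA down to acetyl-CoA, showed the same direction over its whole chain. All 21 listed genes were tested and all 21 had a log2 fold change below 0. For 11 of the 21 every PparaΔIE library lay below every Pparafl/fl library, against 8.82% of all genes. The median was -0.35, from -0.45 to -0.25 when each library was left out, and 0 of the 21 passed the test. Acadvl, the dehydrogenase that opens the cycle for very long chains, was at 108, 98.6 and 119 CPM in PparaΔIE, against 190, 177 and 139 CPM in Pparafl/fl. The groups did not overlap (log2 fold change -0.64, SE 0.12, adjusted p = 0.21). Acads, its counterpart for short chains, was at 72.0, 67.2 and 81.6 CPM in PparaΔIE, against 109, 108 and 91.7 CPM in Pparafl/fl, also without overlap (log2 fold change -0.48, SE 0.10, adjusted p = 0.21). Both genes passed with the chow libraries in the fit (adjusted p = 0.031 for Acadvl and 0.044 for Acads). The calls of that fit fell from 51 to 3 when Pparafl/fl chow 1 and PparaΔIE chow 3 were left out. Acaa2, the last thiolase of the cycle, had the lowest value of the list at -0.85 (SE 0.24, adjusted p = 0.34). The carnitine shuttle gene Cpt2 was at -0.38, the medium-chain dehydrogenase gene Acadm at -0.28, and the trifunctional protein genes Hadha and Hadhb at -0.37 and -0.38. Crat, carnitine acetyltransferase, was among the smallest at -0.19.

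Peroxisomes shorten very long and branched chains before mitochondria take over. Of 24 peroxisomal genes, 22 were below 0 and 13 were lower without overlap, against 8.82% of all genes. Of the 24, 0 passed the test (median -0.23). Acaa1b, a peroxisomal thiolase, was at 2.57, 1.40 and 3.79 CPM in PparaΔIE, against 17.7, 13.3 and 7.97 CPM in Pparafl/fl. Each PparaΔIE library was below each Pparafl/fl library (log2 fold change -2.33, SE 0.42, adjusted p = 0.24). Its near copy Acaa1a was at -0.31, and reads can be shared between such copies. Cat, the catalase that removes the hydrogen peroxide made in peroxisomes, was at 154, 122 and 178 CPM in PparaΔIE, against 233, 209 and 215 CPM in Pparafl/fl (log2 fold change -0.53, SE 0.13, adjusted p = 0.29). Hsd17b4 (-0.67), which carries out the middle steps of peroxisomal oxidation, and Crot (-0.42), which prepares shortened acyl groups for export, did not overlap either. The exceptions were the transporter gene Abcd2 (0.17) and Acox3 (0.00).

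Uptake and activation genes were lower on the same scale. All 16 tested of 17 listed genes were below 0, with a median of -0.37. Of the 16, 9 were lower without overlap, against 8.82% of all genes. Fabp2, the intestinal fatty acid binding protein, was at 3211, 3192 and 4818 CPM in PparaΔIE, against 6357, 6141 and 4937 CPM in Pparafl/fl. PparaΔIE 3 came within the reach of Pparafl/fl 3 without crossing it (log2 fold change -0.64, SE 0.18, adjusted p = 0.31). The transporter and acyl-CoA synthetase genes Slc27a2 (-0.63) and Slc27a4 (-0.47) and the acyl-CoA binding protein gene Dbi (-0.37) also had groups that did not overlap. Cd36, a fatty acid receptor, overlapped widely (-0.41, SE 0.32, adjusted p = 0.67). Of the thioesterases, which release fatty acids from CoA, 10 of 11 were below 0. Of these 11, 5 were lower without overlap, against 8.82% of all genes. The median was -0.31, and Acot1 was at -1.28 (SE 0.41, adjusted p = 0.34).

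Genes for building and exporting triglyceride followed less evenly. Of 29 tested genes of chylomicrons and triglyceride handling, 28 were below 0, and the median was -0.24. The groups did not overlap for 6 of the 29, all lower, against 8.82% of all genes. Apoa4, an apolipoprotein of chylomicrons, was at 983, 1115 and 1313 CPM in PparaΔIE, against 2258, 2686 and 896 CPM in Pparafl/fl. Pparafl/fl 3 was the lowest of all 6 libraries (log2 fold change -0.78, SE 0.40, adjusted p = 0.54). Apoc2, the activator of lipoprotein lipase, was at 18.0, 44.7 and 32.1 CPM in PparaΔIE and 117, 133 and 19.5 CPM in Pparafl/fl. Here Pparafl/fl 3 lay within the PparaΔIE range. Apob, the structural protein of chylomicrons, was at -0.09 (SE 0.16, adjusted p = 0.88), and Mogat2, which rebuilds diglyceride in enterocytes, at -0.32 without overlap (SE 0.10, adjusted p = 0.34). Of 6 tested genes of omega-oxidation, 2 were lower without overlap, against 8.82% of all genes. Aldh3a2, a fatty aldehyde dehydrogenase, was at -0.57 (adjusted p = 0.25).

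Among the receptor's relatives and partners, Ppara was the one that passed the test, as 1 of 11 tested. Ppard, the PPAR of widest expression, was at 110, 106 and 89.2 CPM in PparaΔIE, against 66.3, 80.5 and 93.4 CPM in Pparafl/fl. Pparafl/fl 3 reached into the PparaΔIE range (log2 fold change 0.35, SE 0.13, adjusted p = 0.39). Pparg was at -0.13 and the partner Rxra at 0.03, while the coactivator genes Ppargc1a and Ppargc1b were at 0.24 and 0.35, all with overlap. Of the 11 tested, 9 were above 0, against 49.8% of all genes. Without overlap 2 of the 11 were higher, against 9.39% of all genes, and 1, Ppara itself, was lower, against 8.82%. Lipogenesis genes had a median of -0.18 over 14, with 3 lower and 2 higher without overlap, against 8.82% and 9.39% of all genes. Me1, malic enzyme, a source of NADPH for lipogenesis, was at 9.76, 8.98 and 13.4 CPM in PparaΔIE, against 44.1, 26.3 and 13.2 CPM in Pparafl/fl, where library 3 lay within the PparaΔIE range (log2 fold change -1.38, SE 0.48, adjusted p = 0.42). Mlxipl, which encodes the sugar-sensing factor ChREBP, was at 0.35 without overlap (SE 0.09, adjusted p = 0.29).

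Mt1 had the largest increase among genes that passed the test. Mt1 encodes metallothionein 1, a small protein that binds zinc and copper (chromosome 8, 94179082 to 94180327, mm10). It was measured at 177, 170 and 198 CPM in PparaΔIE, against 20.3, 13.4 and 19.9 CPM in Pparafl/fl. The spread within groups was small beside the gap, and Mt1 rose (log2 fold change 3.35, SE 0.16, adjusted p = 7.4e-05), a call made in 6 of 6 fits that left out a library. Mt2, the neighbouring metallothionein gene (chromosome 8, 94172664 to 94173568), was at 3.10, 2.03 and 3.39 CPM in PparaΔIE, against 3.21, 1.46 and 1.91 CPM in Pparafl/fl. The Mt2 groups overlapped (log2 fold change 0.37, SE 0.31, adjusted p = 0.69). Mtf1, the metal-sensing factor that drives both genes, was at 0.03 (SE 0.09), and the zinc exporter gene Slc30a1, another target of that factor, at 0.08 (SE 0.12). Slc30a10, a manganese exporter, was at 0.57 without overlap (SE 0.15, adjusted p = 0.3). The 19 tested genes of metallothioneins and zinc transport had a median of 0.03. The table holds 1 value per gene, so where along Mt1 the additional reads lie, and whether they come from the gene at its own locus, was not tested.

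The starts of both metallothionein genes are shown because the neighbours differ in response. The core of the metal response element was searched as TGCACNC or TGCGCNC on both strands, in the same window around the RefSeq start, and is in capitals. Of all 32851 promoters, 25.7% held at least 1 match and 1.97% held 3 or more. The Mt1 sequence (chr8:94178839-94179138, GRCm38.p6, plus strand) held 3, all forward, and the Mt2 sequence (chr8:94172368-94172667, plus strand) held 4, with 2 forward and 2 reverse. A match is a description of the letters and not a site in use.
Mt1: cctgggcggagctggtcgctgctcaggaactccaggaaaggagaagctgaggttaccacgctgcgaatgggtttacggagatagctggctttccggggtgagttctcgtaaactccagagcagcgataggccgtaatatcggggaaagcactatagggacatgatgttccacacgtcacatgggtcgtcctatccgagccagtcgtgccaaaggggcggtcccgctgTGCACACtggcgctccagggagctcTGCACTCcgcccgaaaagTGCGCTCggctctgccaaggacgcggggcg
Mt2: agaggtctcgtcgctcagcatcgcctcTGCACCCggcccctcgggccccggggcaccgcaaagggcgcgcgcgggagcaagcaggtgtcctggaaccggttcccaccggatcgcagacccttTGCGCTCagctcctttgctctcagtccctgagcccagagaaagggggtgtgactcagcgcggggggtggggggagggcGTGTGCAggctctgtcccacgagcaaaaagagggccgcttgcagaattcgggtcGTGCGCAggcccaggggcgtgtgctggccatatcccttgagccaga

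Paqr7, which encodes a membrane receptor for progestins (chromosome 4, 134496697 to 134510235), fell in PparaΔIE. It was at 3.98, 3.89 and 5.53 CPM in PparaΔIE, against 14.8, 12.7 and 10.99 CPM in Pparafl/fl. The groups were far apart (log2 fold change -1.53, SE 0.17, adjusted p = 0.034). The call was lost without Pparafl/fl 2, PparaΔIE 1 or PparaΔIE 2 (adjusted p = 0.153, 0.111 and 0.0732). All 8 tested members of the PAQR receptor family were below 0, and 2 were lower without overlap, against 8.82% of all genes. The median was only -0.16, and the progestin receptor genes Paqr5 and Paqr8 were at -0.22 and -0.03.

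Gsdmc3 rose in PparaΔIE. It belongs to the gasdermin C cluster, genes of pore-forming proteins found in gut epithelium (chromosome 15, 63857724 to 63878558). It was at 30.8, 25.8 and 24.6 CPM in PparaΔIE, against 15.6, 15.03 and 13.4 CPM in Pparafl/fl (log2 fold change 0.89, SE 0.11, adjusted p = 0.041). The neighbours Gsdmc2 and Gsdmc4 had the same layout, with 49.7, 48.1 and 39.5 CPM in PparaΔIE and 31.0, 29.9 and 21.8 CPM in Pparafl/fl for Gsdmc2. Gsdmc4 was at 77.9, 90.8 and 70.0 CPM in PparaΔIE, against 54.8, 51.6 and 41.7 CPM in Pparafl/fl. Neither passed the test (log2 fold change 0.73 and 0.69, both with adjusted p = 0.21), and reads can be shared among these near copies. Gsdmd, the gasdermin of inflammatory cell death, was at -0.13 with overlap. The Gsdmc3 call was kept without Pparafl/fl 1 or PparaΔIE 3 and lost without any of the other 4 libraries (adjusted p from 0.0581 to 0.177). With a smooth muscle score as a covariate, which itself did not overlap between groups, the log2 fold change was 0.59 (adjusted p = 0.143).

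Gm26244 changed in a way that did not follow the genotype. This gene of a small nuclear RNA had 0, 2 and 0 counts in PparaΔIE libraries on high-fat diet, against 319, 246 and 226 counts in Pparafl/fl libraries. The ratio of Pparafl/fl to PparaΔIE was 351 (95% exact interval 97.0 to 2907, counting error only). In the chow libraries it had 557, 1 and 2 counts in PparaΔIE 1, 2 and 3 and 0, 0 and 409 counts in Pparafl/fl 1, 2 and 3. It was thus present or nearly absent by library in both genotypes, it did not pass with the chow libraries in the fit (adjusted p = 0.38), and it was named after its values were seen.

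S100g came next after the genes that passed (adjusted p = 0.063). It encodes calbindin-D9k, the calcium carrier of enterocytes that vitamin D induces (chromosome X, 162961992 to 162964599). It was at 9.29, 8.24 and 9.94 CPM in PparaΔIE, against 4.90, 4.10 and 4.65 CPM in Pparafl/fl. The groups were widely separated (log2 fold change 1.01, SE 0.13), and with the chow libraries in the fit the adjusted p was 0.0029. Vdr, the vitamin D receptor, was at -0.03, and the calcium pump gene Atp2b1 at 0.31 with overlap. Trpv6, the apical calcium channel of the duodenum, had 0 CPM in every library.

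**Figure D3:**
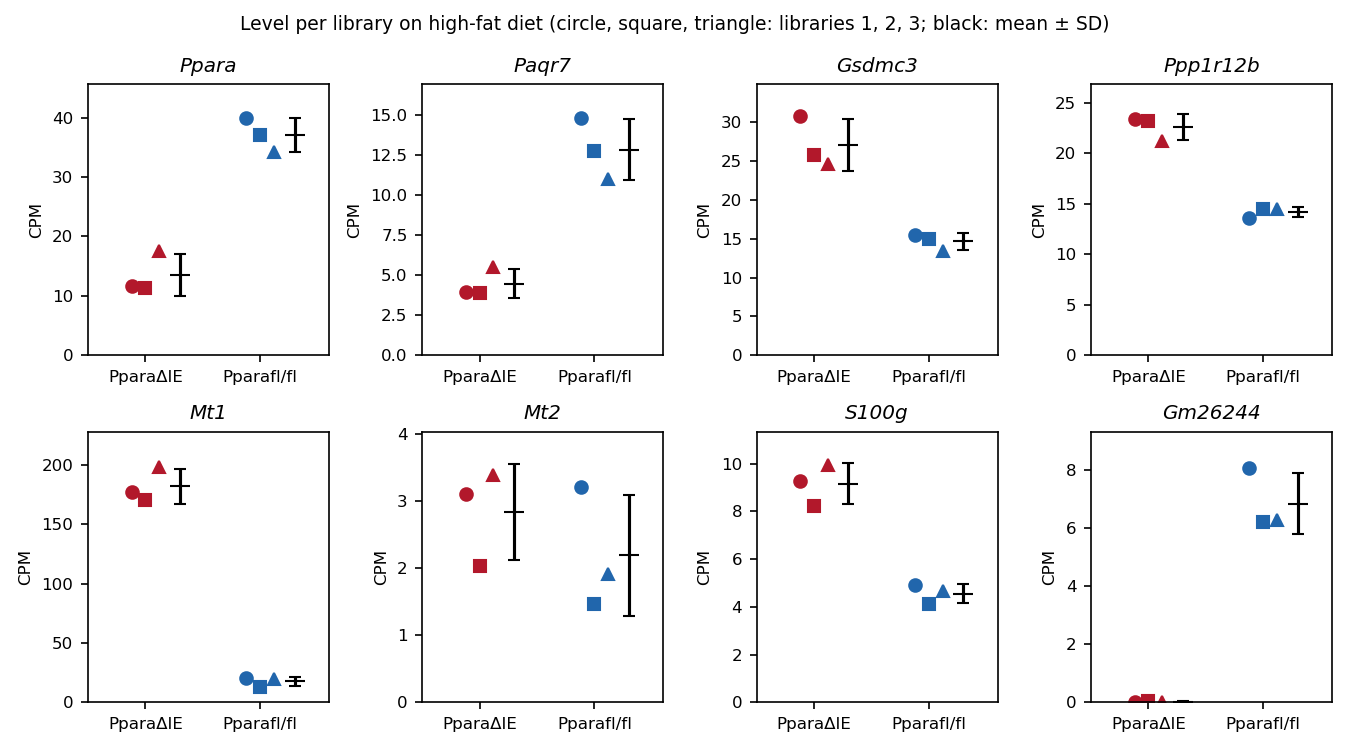
CPM (vertical axes, from 0, with a separate scale for each gene) in 3 PparaΔIE libraries (red, left) and 3 Pparafl/fl libraries (blue, right) on high-fat diet, with the mean ± SD in black. Ppara, Paqr7, Gsdmc3, Ppp1r12b, Mt1 and Gm26244 passed the test, whereas Mt2 overlapped between groups and S100g, with an adjusted p of 0.063, did not pass.

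Ppp1r12b, a regulatory subunit of myosin phosphatase (chromosome 1, 134754658 to 134955942), rose in PparaΔIE. It was at 23.5, 23.2 and 21.2 CPM in PparaΔIE, against 13.6, 14.5 and 14.5 CPM in Pparafl/fl, with little spread in either group (log2 fold change 0.67, SE 0.09, adjusted p = 0.049). The call was kept without PparaΔIE 3 and lost without any of the other 5 libraries (adjusted p from 0.0612 to 0.231). It belongs to a list of 20 smooth muscle genes, of which 19 were tested. All 19 were above 0, against 49.8% of all genes, 15 were higher without overlap, against 9.39%, and 1 passed the test. The list had the highest median of those with more than 2 tested members, 0.91, from 0.67 to 1.35 when each library was left out.

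The other muscle genes varied more between libraries than Ppp1r12b. Myh11, smooth muscle myosin heavy chain, was at 50.1, 38.7 and 39.0 CPM in PparaΔIE, against 26.9, 14.2 and 11.6 CPM in Pparafl/fl (log2 fold change 1.28, SE 0.33, adjusted p = 0.34). Actg2, the enteric muscle actin, was at 6.86, 4.55 and 4.63 CPM in PparaΔIE, against 3.48, 1.44 and 0.969 CPM in Pparafl/fl (log2 fold change 1.44, SE 0.45, adjusted p = 0.35). In both genes Pparafl/fl 1 was the highest of its group and closest to PparaΔIE. Des, Myh11, Tpm2 and Actg2 passed the test when Pparafl/fl 1 was left out. As that library was closest to PparaΔIE in Myh11 and Actg2, its removal widens their gap, and these calls are no separate evidence. With the chow libraries in the fit 3 of the 19 were called higher, against 0.102% of all genes, and 7 were by DESeq2, against 0.506%. Mylk, myosin light chain kinase, which many cell types express, was at 0.10 with overlap. The summed level of the muscle list was 419 to 432 CPM in PparaΔIE and 289 to 371 CPM in Pparafl/fl. Markers of other cells of the gut wall had medians of -0.16 for 12 fibroblast genes, -0.24 for 12 endothelial genes and -0.20 for 5 enteric neuron and glia genes. When each library was left out in turn these medians ran from -0.28 to -0.048 for fibroblasts and from -0.43 to -0.14 for endothelium. That of neurons and glia ran from -0.30 to 0.045, turning sign without Pparafl/fl 3. Adipoq and Plin1, markers of fat cells, were near 0 in both groups. The muscle score was 0.53, 0.32 and 0.31 in PparaΔIE and 0.022, -0.52 and -0.66 in Pparafl/fl. It did not overlap between groups, so a fit with it as a covariate cannot cleanly separate it from genotype. With the muscle score as a covariate the medians of PPARA-responsive genes and mitochondrial oxidation were -0.49 and -0.48. That of chylomicron and triglyceride genes was -0.12 and that of acyl-CoA thioesterases -0.61. The median of Paneth cell genes was then -1.08 and that of interferon response genes 0.56. In this fit 35 of the 55 list medians moved by more than the spread within groups.

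Paneth cell genes were lower in PparaΔIE. These cells at the crypt base secrete defensins and lysozyme. All 20 tested of 21 listed genes were below 0, and 15 were lower without overlap, against 8.82% of all genes. The median was -0.55 and 0 passed the test. With the chow libraries in the fit 5 of the 20 were called lower, against 0.187% of all genes tested in that fit. By DESeq2 11 were called lower, against 0.727%. Defa32, a defensin, was at 195, 181 and 250 CPM in PparaΔIE, against 419, 388 and 337 CPM in Pparafl/fl (log2 fold change -0.87, SE 0.13, adjusted p = 0.16). Lyz1, the lysozyme of Paneth cells, was at 934, 1112 and 959 CPM in PparaΔIE, against 1889, 1749 and 1301 CPM in Pparafl/fl (log2 fold change -0.72, SE 0.15, adjusted p = 0.21). Pparafl/fl 3 was the lowest of its group in both. Mmp7, the protease that matures defensins, was an exception at -0.09 with overlap (SE 0.12). Defensin genes are near copies, so their values are not independent of each other. The summed level of the list was 3720 to 4077 CPM in PparaΔIE and 4866 to 7018 CPM in Pparafl/fl. Clps, which encodes colipase and is also an acinar gene, was at -0.83 (adjusted p = 0.21), while the acinar genes Cpa1 and Prss2 were near 0 in both groups.

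**Figure D4:**
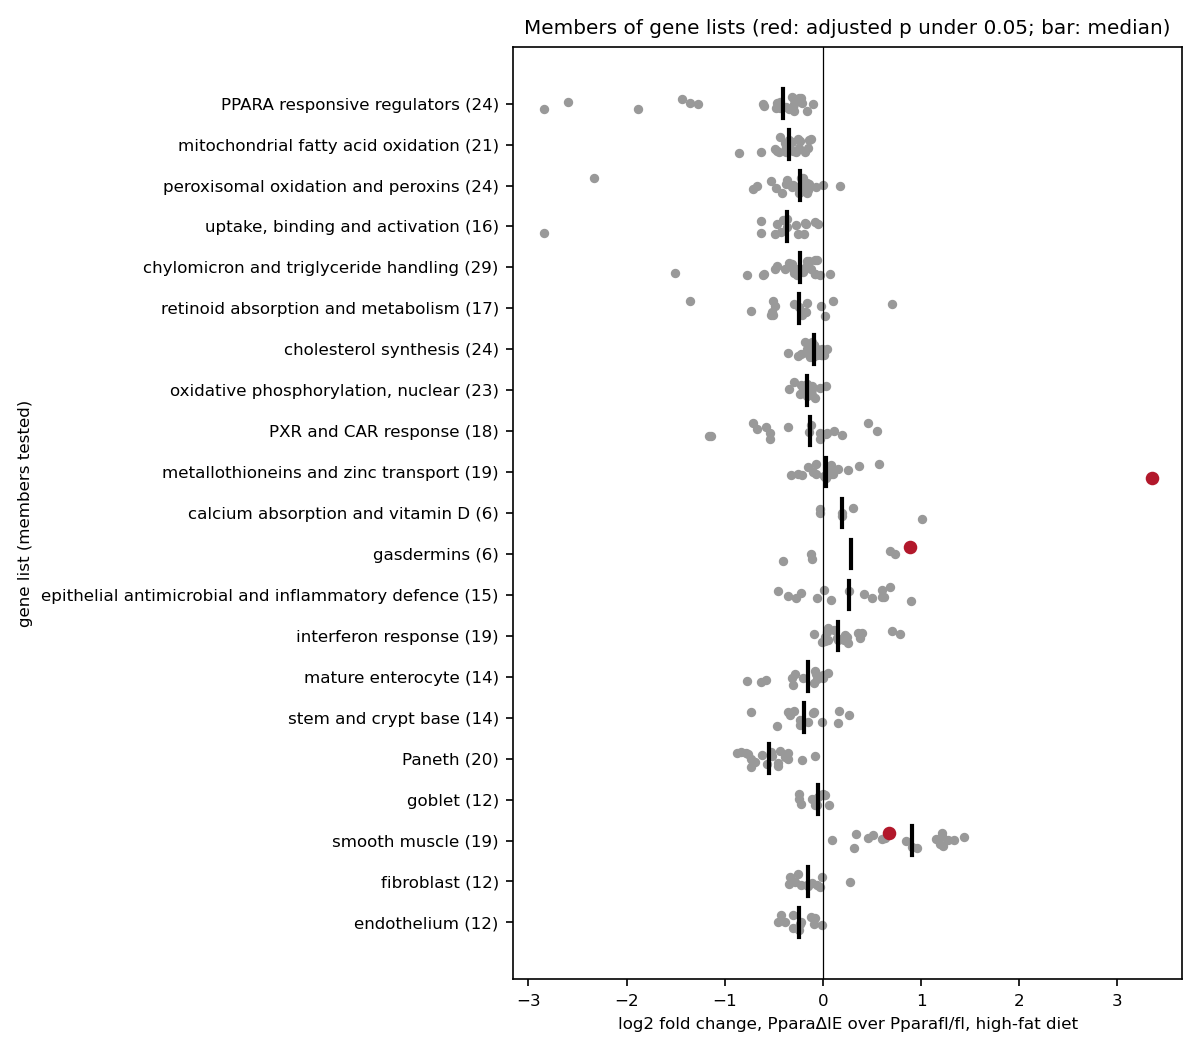
Log2 fold change of PparaΔIE over Pparafl/fl (horizontal axis) for each tested member of 21 gene lists (rows, number of members in brackets), with a black bar at the median. The red points are Mt1, Gsdmc3 and Ppp1r12b, the members with adjusted p under 0.05. Fat metabolism lists and Paneth cell genes lie left of 0 and smooth muscle genes right of it, with medians of -0.41, -0.55 and 0.91 for PPARA-responsive, Paneth and muscle genes.

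The stretch of intestine sampled was looked at through segment markers. The 6 tested ileum genes had a median of -0.06 and the 7 tested proximal genes one of -0.07, with 0 non-overlapping genes in both lists. When each library was left out in turn the ileum median ran from -0.14 to 0.039, turning sign without PparaΔIE 2. The proximal median ran from -0.47 without PparaΔIE 2 to -0.020 without Pparafl/fl 2. Lct, the lactase gene, ranged widely within groups, with 51.0, 131 and 146 CPM in PparaΔIE and 260, 162 and 77.3 CPM in Pparafl/fl. The proximal score was -0.51, 0.29 and 0.075 in PparaΔIE and 0.34, 0.32 and -0.51 in Pparafl/fl. PparaΔIE 1 and Pparafl/fl 3 thus had the lowest proximal scores, and Pparafl/fl 3 was also the library with the lowest Fabp1, Apoa4 and Me1 of its group. The part of the segment in those values was not tested. Mature enterocyte genes had a median of -0.15 over 14. Lower without overlap, against 8.82% of all genes, were 3 of the 14. Of these Treh, the brush border trehalase, was at -0.58 (SE 0.12, adjusted p = 0.22), while Sis and Vil1 were at -0.09 and -0.08. Stem cell and crypt base genes had a median of -0.19 over 14, which ran from -0.25 to -0.087 when each library was left out. Without overlap 2 of the 14 were lower and 2 higher, against 8.82% and 9.39% of all genes. Smoc2, a crypt base marker, was at 13.2, 12.9 and 12.9 CPM in PparaΔIE, against 19.7, 17.4 and 17.0 CPM in Pparafl/fl (log2 fold change -0.47, SE 0.09, adjusted p = 0.21), while Lgr5 overlapped at -0.29 (SE 0.15). Axin2, a Wnt target gene, lay the other way, at 85.5, 90.6 and 79.5 CPM in PparaΔIE, against 65.8, 69.2 and 77.6 CPM in Pparafl/fl (log2 fold change 0.27, SE 0.09, adjusted p = 0.35).

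**Figure D5:**
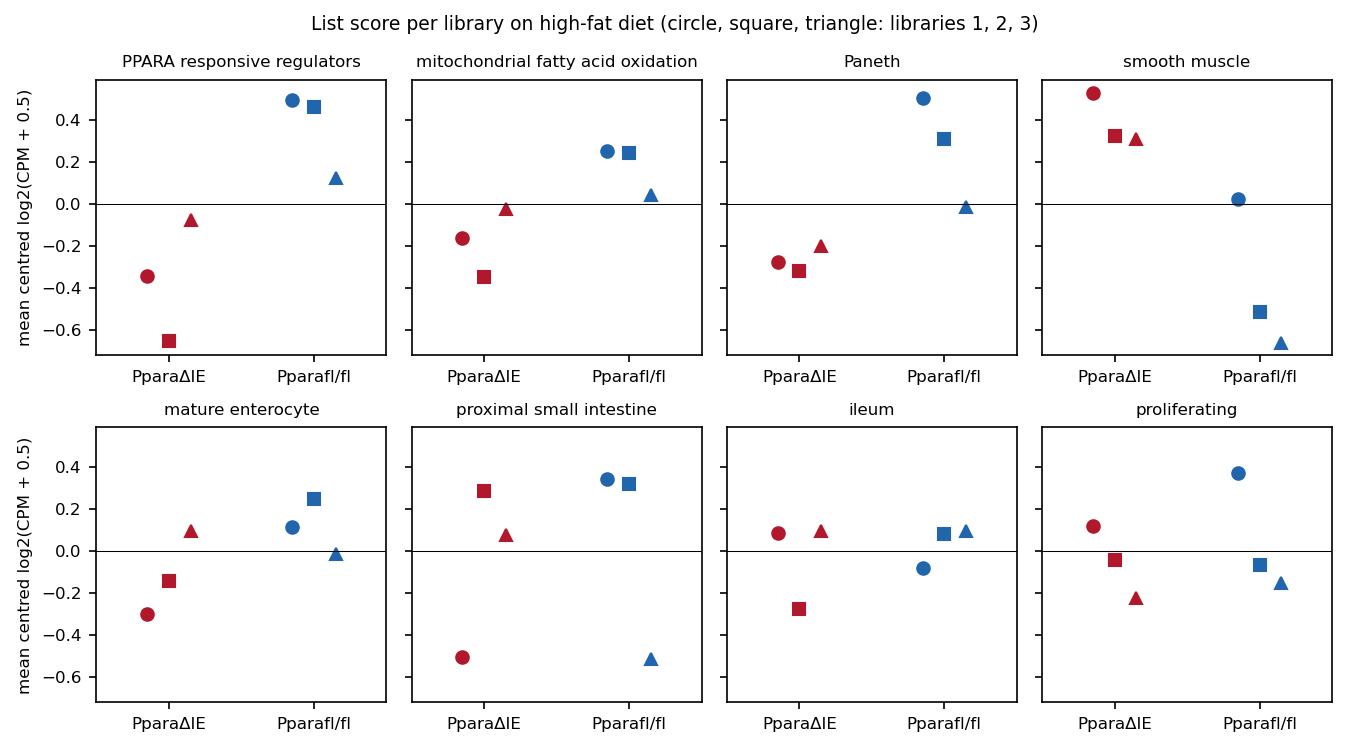
Score of 8 gene lists in each library (mean centred log2(CPM + 0.5), vertical axis, 1 scale for all panels), with PparaΔIE in red on the left and Pparafl/fl in blue on the right. The PPARA-responsive, mitochondrial, Paneth and smooth muscle scores separate the groups, whereas the enterocyte, proximal, ileum and proliferation scores overlap. Pparafl/fl 3 lies nearest to PparaΔIE in the PPARA-responsive score, at 0.12.

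Retinoid genes handle dietary vitamin A, which is absorbed with fat. Of 17 tested, 14 were below 0 and 6 were lower without overlap, against 8.82% of all genes. The median was -0.25, with 0 passing the test. Retsat, retinol saturase, was at 45.2, 30.5 and 47.4 CPM in PparaΔIE, against 147, 93.4 and 75.3 CPM in Pparafl/fl (log2 fold change -1.36, SE 0.29, adjusted p = 0.3). It is also on the list of PPARA-responsive genes. Rbp2, the retinol carrier of enterocytes, overlapped at -0.53 (SE 0.21), and Stra6, a retinol transporter, was at 0.71 with overlap (SE 0.32, adjusted p = 0.45). Cholesterol synthesis genes had a median of -0.09 over 24, with 6 lower without overlap. The lowest of them was Mvk, mevalonate kinase, at 25.6, 25.6 and 25.7 CPM in PparaΔIE, against 33.7, 31.0 and 33.6 CPM in Pparafl/fl (log2 fold change -0.36, SE 0.07, adjusted p = 0.21). Against 8.82% of all genes, 2 of 11 sterol transport genes were lower without overlap, with 7 below 0 and a median of -0.12. Lpcat3, a phospholipid remodelling enzyme, was the lowest of them at -0.32 (adjusted p = 0.31), and Npc1l1, the cholesterol importer, was at 0.03. Nuclear genes of oxidative phosphorylation had a median of -0.16 over 23, with 6 lower without overlap, against 8.82% of all genes. Glycolysis genes had a median of -0.14 over 17.

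Genes that metabolise drugs and lipids were mixed. Of 18 tested genes of the PXR and CAR response, 6 were lower and 1 was higher without overlap (median -0.13). The shares over all genes were 8.82% and 9.39%. Cyp2c65, a cytochrome P450 of the gut, was at 21.4, 18.6 and 25.2 CPM in PparaΔIE, against 60.2, 49.0 and 36.5 CPM in Pparafl/fl (log2 fold change -1.16, SE 0.19, adjusted p = 0.21). Ugt1a1, which conjugates bilirubin, was at -0.72 (SE 0.14, adjusted p = 0.21), and both genes have near copies. The one higher gene was Cyp3a11, at 3.89, 3.83 and 4.13 CPM in PparaΔIE, against 2.22, 3.63 and 2.21 CPM in Pparafl/fl (log2 fold change 0.55, SE 0.22, adjusted p = 0.4). Gal3st2b, a sulfotransferase gene, was at 19.98, 10.0 and 20.6 CPM in PparaΔIE, against 65.1, 48.6 and 59.7 CPM in Pparafl/fl. It did not pass the test (log2 fold change -1.78, SE 0.29, adjusted p = 0.21) but did so with the chow libraries in the fit (adjusted p = 0.031). Of the Kruppel-like transcription factors, Klf6 was at 123, 137 and 179 CPM in PparaΔIE, against 239, 270 and 253 CPM in Pparafl/fl (log2 fold change -0.80, SE 0.13, adjusted p = 0.2). Klf7 was in the other direction at 0.56 (SE 0.11, adjusted p = 0.21), and the 14 members had a median of -0.03.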

How the data were processed

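Per the labels' protocols, total RNA of mouse intestine was sequenced from stranded libraries. The authors deposited unscaled expected counts. The submitters' processing notes name Trimmomatic, STAR, Picard, RSEM and mm10. Their versions, the annotation release and the strand setting are not given, so reads of near copies and of antisense partners may be shared. In the table of 47643 genes, 18677 had no count after rounding. Symbols and coordinates came from GENCODE vM21 (47224 IDs matched), which may not be the authors' release.

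Expected counts were rounded and tested with edgeR 4.0.16 (TMM, filterByExpr, robust quasi-likelihood F test) in R 4.3.3 on the 6 high-fat diet libraries, with Benjamini-Hochberg adjustment over 16912 genes and a threshold of 0.05. Chow libraries were left out because the comparison is of the 6 high-fat diet libraries only. An earlier look at these data had also found chow libraries with a spread far below the others or that looked like mixtures of their neighbours. Mixing was not tested here. Pparafl/fl chow had a biological coefficient of variation of only 0.0572. CPM used TMM-scaled library sizes. SE came from the F statistic. DESeq2 1.42.0 and other settings were alternatives. The script was tested on simulated data. Gene lists (55) are given by counts and medians, with no set test, and some share members. Members and lists were chosen with earlier results of these data known. The rule named Ppara, genes with established symbols that passed, the 8 largest non-overlapping changes each way at a mean log2 CPM of at least 1, and up to 4 members of each list by p plus the one with the largest change; other genes are named as list members or neighbours. Promoter sequences are RefSeq's, build GRCm38.p6. Python 3.11.15, pandas 2.3.3, scipy 1.17.1 and matplotlib 3.10.9 were used. The values of 2 listed genes are not reported here.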

Additional observations from a re-analysis of the deposited data

How the results depend on the processing

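The count of 6 genes was 6 with DESeq2 size factors and with a minimum of 50 counts in 3 libraries, and 5 with protein-coding genes alone. It was 51 with all 12 libraries in the fit, 3 with the 10 libraries left without Pparafl/fl chow 1 and PparaΔIE chow 3, 49 without the filter, 2 without the robust fit, 156 by DESeq2 and 197 with the smooth muscle score as a covariate. Of the 6 genes, 5 were among the 51, 2 among the 3 and 3 among the 197. It was 19 with the replicate block, a paired fit on numbers that did not pair the samples (correlations of deviations 0.149, -0.0875 and 0.09). Leaving out each replicate gave 2 to 19. The log2 fold change of Ppara lost its call with 10 libraries (-1.472), without the robust fit (-1.462), with the replicate block (-1.484) and with the muscle score (-1.548). Leaving out each replicate moved it between -1.696 and -1.351, with the call lost in 5 of 6 fits. The causes of these shifts were not tested. No named gene that passed changed direction in any setting. The 24 PPARA-responsive, 21 mitochondrial and 20 Paneth genes kept a median below 0 in all 16 alternative settings. The smooth muscle median turned only with its own score as a covariate (-0.12). The median over all genes stayed within 0.02 of 0 in every setting.

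Depth was 33.6 to 40.5 counts per CPM before scaling, so values of 1 CPM or less rest on few counts. The biological coefficient of variation was 0.138 in PparaΔIE and 0.144 in Pparafl/fl, with 3 libraries a group.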

Other observations

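Listed genes of epithelial defence had a median above 0 in PparaΔIE, and none of them passed the test. Of 15 tested genes of antimicrobial and inflammatory defence, 5 were below 0. Without overlap between groups, 4 of the 15 were higher, against 9.39% of all genes, and 1 was lower, against 8.82%. Their median log2 fold change was 0.26, and it ran from 0.027 without PparaΔIE 3 to 0.36 without Pparafl/fl 2. Reg3g, a bactericidal lectin, was at 3443, 6266 and 3491 CPM in PparaΔIE, against 2770, 2900 and 3027 CPM in Pparafl/fl (log2 fold change 0.60, SE 0.22, adjusted p = 0.39 by edgeR). PparaΔIE 2 was well above the other libraries of its group. Duox2, which makes hydrogen peroxide at the epithelial surface, was at 571, 605 and 404 CPM in PparaΔIE, against 268, 394 and 367 CPM in Pparafl/fl (log2 fold change 0.62, SE 0.18, adjusted p = 0.33). Of 19 interferon response genes 17 were above 0, against 49.8% of all genes, and 3 were higher without overlap, against 9.39%. Their median was 0.16, and it ran from 0.0013 without Pparafl/fl 1 to 0.41 without Pparafl/fl 2, with the antiviral genes Mx2 at 0.79 and Oas2 at 0.70.

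Mast cell proteases did not pass the test. Mcpt1, a protease of mucosal mast cells, was at 5.87, 3.98 and 2.67 CPM in PparaΔIE, against 1.84, 1.36 and 1.72 CPM in Pparafl/fl (log2 fold change 1.35, SE 0.28, adjusted p = 0.22 by edgeR). Mcpt2 had the same layout at 1.32 (SE 0.40, adjusted p = 0.33). The other 4 listed mast cell genes, Cpa3 and Tpsb2 among them, were too low to be tested. Pla2g4c, a phospholipase gene, was at 71.8, 36.2 and 38.1 CPM in PparaΔIE, against 20.6, 11.99 and 22.2 CPM in Pparafl/fl (log2 fold change 1.42, adjusted p = 0.34). Slc15a2, a peptide transporter gene, was at 5.25, 6.24 and 3.66 CPM in PparaΔIE, against 2.68, 0.0756 and 0.111 CPM in Pparafl/fl, where library 1 held nearly all of its counts. Gm26917, a long noncoding RNA gene chosen after its values were seen, was at 36124, 34918 and 31357 CPM in PparaΔIE, against 16457, 20205 and 20649 CPM in Pparafl/fl (log2 fold change 0.84, adjusted p = 0.21). It moved with the lower share of protein-coding counts in PparaΔIE, and the part of library composition in it was not tested. The immunoglobulin genes Ighv10-3 (-3.40) and Igkv4-72 (-1.92) were among the largest decreases without overlap.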
